A study of Mus musculus with 24 samples.

Results

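The nuclear genes of oxidative phosphorylation were followed by complex in mouse blood. Members were the genes on the array whose probe name in the files begins with Nduf (a, b, c, s or v and a digit), is Sdha to Sdhd, or begins with Uqcr, Cox4 to Cox8 or Atp5. By this rule, which uses names and no measured value, 85 of the 29711 genes on the array were members: 37 of complex I, 4 of complex II, 8 of complex III, 18 of complex IV and 18 of complex V. They were read by 127 probes. Some names in the files are old: Atp5s is now Dmac2l, Atp5sl is Dmac2 and Atp5f1 is Atp5pb. Dmac2 and Dmac2l are not counted among the subunits of the enzyme today, and 1 further member is the pseudogene Atp5c1-ps.

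Whole blood RNA came from male C57BL/6J mice, drawn by cardiac puncture into a stabilising solution 24 h after x-rays at a dose of 0 Gy or 7 Gy. There were 4 groups, Gadd45aWT at 0 Gy (5 arrays), Gadd45aWT at 7 Gy (5 arrays), Gadd45aKO at 0 Gy (5 arrays) and Gadd45aKO at 7 Gy (9 arrays). Gadd45a encodes a stress protein induced by DNA damage, and the study's title places its loss in radiation biodosimetry, the estimation of dose from blood. The design text speaks of independent experiments, but the labels tie no array to an animal and give neither allele nor age, so the p-values cover only the spread among the samples here, part of which may be technical. Blood mixes white cells, platelets and red cells with residual RNA, and on an array of bulk blood fewer cells of a type and less RNA per cell cannot be told apart.

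Oxidative phosphorylation makes ATP in the inner mitochondrial membrane. Complex I (NADH dehydrogenase) and complex II (succinate dehydrogenase) pass electrons to ubiquinone, complex III (cytochrome bc1) passes them on to cytochrome c, complex IV (cytochrome c oxidase) reduces oxygen, and complex V (ATP synthase) uses the proton gradient to make ATP. Most subunits are encoded in the nucleus, a small set in mitochondrial DNA, and several subunits of complex IV have a form found in most tissues and another typical of heart and skeletal muscle. Mature red cells have no mitochondria, but reticulocytes still carry some, as do platelets and white cells.

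Each value, called the level here, is the log2 signal less the 75th percentile of its array; a level is compared between samples, not between probes. The Gadd45a probe did not read lower on Gadd45aKO arrays: its mean level was 0.65 in Gadd45aWT and 0.50 in Gadd45aKO blood at 0 Gy, and -1.21 and -0.01 at 7 Gy, so these arrays are called KO-labelled and every direction drawn from the label carries that reservation. Whether the probe lies in the deleted part of the gene is not given in the sources used here. Arrays 1 and 4 of KO-labelled 0 Gy differed by about as much as repeat spots within an array and were counted as 1 sample, which left 5, 5, 4 and 9 samples. Between 25.7% and 50.9% of probes lay well above background per array, and the coefficient of variation of repeat spots was 5.0% to 17.3%, above 10% on 3 arrays. Some arrays stood apart. WT 7 Gy arrays 3 to 5 had a mean centred level of hepatocyte markers of 5.29 to 5.41, against 1.41 and 1.45 on arrays 1 and 2. KO-labelled 7 Gy arrays 5 and 7 had one of 3.70 and 3.72 for muscle markers, against at most 1.08 on any other array. On KO-labelled 0 Gy arrays 2 and 5 the hepatocyte value was -0.84 and 0.31, against -3.73 to -3.30 on the other 3. Counts are therefore also given without these arrays.

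Of the 85 members, 82 passed the requirement of a probe well above background on at least 5 arrays, and 75 were above it on all 24. The 3 that did not pass were the tissue-restricted subunits Cox7b2 (above background on 0 arrays), Cox8b (2 arrays) and Cox8c (1 array). Cox7b2 and Cox8c are known from testis and Cox8b from heart and skeletal muscle. Cox6a2, a heart and muscle form, was above background on 13 arrays, and Ndufa4l2 on 5.

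Promoters of 69 members were found in the RefSeq table of GRCm38.p6, which gives 250 bases before to 50 after a start. Nuclear respiratory factor 1 (NRF1) and GABP, an ETS-family factor also called NRF2, are textbook activators of these genes. The NRF1 motif GCGCANGCGC, on either strand, was in the window of 17 of the 69 members (24.6%) and of 5.19% of 27025 genes. The ETS motif CCGGAAG, on either strand, was in that of 16 members (23.2%) and of 9.93% of all genes (a window can hold both, and the motifs were counted apart). The genes of both factors were measured: Nrf1 changed by -1.37 ± 0.28 (log2 change ± SE) and Gabpa by -1.33 ± 0.21 after 7 Gy in KO-labelled blood, both falls (limma adjusted p = 0.00036 and 2.3e-05), whereas in WT blood Gabpa fell by 0.67 and Nrf1 did not pass the test. The 250 bases before the start are shown for 5 members that the comparisons below turn on, which hold at least 1 match each. They are on the minus strand of their chromosomes, Cox6a1 at chr5:115348959-115349208, Atp5k at chr5:108434400-108434649, Sdha at chr13:74350241-74350490, Uqcr11 at chr10:80406822-80407071, Atp5e at chr2:174464102-174464351, and capitals mark the motifs, of which a match is a description of letters and not of binding.
Cox6a1: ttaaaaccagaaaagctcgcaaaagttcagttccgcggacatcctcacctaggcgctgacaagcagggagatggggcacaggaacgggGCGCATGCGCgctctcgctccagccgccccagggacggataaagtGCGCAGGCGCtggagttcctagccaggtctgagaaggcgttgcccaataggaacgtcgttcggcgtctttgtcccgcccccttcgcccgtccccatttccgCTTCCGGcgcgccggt
Atp5k: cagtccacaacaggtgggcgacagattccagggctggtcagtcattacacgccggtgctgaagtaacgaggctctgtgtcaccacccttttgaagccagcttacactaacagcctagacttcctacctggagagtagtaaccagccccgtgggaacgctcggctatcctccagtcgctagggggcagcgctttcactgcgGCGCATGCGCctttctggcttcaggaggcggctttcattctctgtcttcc
Sdha: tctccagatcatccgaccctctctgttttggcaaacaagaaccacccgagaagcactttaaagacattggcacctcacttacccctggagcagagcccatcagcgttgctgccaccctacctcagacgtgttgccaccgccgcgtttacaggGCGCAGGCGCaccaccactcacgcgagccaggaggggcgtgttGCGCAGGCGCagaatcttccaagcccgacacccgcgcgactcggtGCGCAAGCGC
Uqcr11: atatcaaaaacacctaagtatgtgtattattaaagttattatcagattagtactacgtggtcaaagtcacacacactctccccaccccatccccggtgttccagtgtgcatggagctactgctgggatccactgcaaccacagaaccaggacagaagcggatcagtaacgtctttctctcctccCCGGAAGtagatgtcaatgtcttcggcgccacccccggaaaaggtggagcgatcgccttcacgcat
Atp5e: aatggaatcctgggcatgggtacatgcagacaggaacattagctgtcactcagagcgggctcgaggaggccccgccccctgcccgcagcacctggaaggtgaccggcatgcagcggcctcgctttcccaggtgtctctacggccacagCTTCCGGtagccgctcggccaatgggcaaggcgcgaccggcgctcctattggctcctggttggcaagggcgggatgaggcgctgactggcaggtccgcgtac

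Cox6a1 holds matches to the NRF1 motif beginning 162 and 117 bases before the start and an ETS match at 16. Sdha holds 3 NRF1 matches at 98, 55 and 10. Atp5k holds 1 NRF1 match at 50, and the ETS match in its window does not lie wholly within the printed bases. Uqcr11 and Atp5e hold 1 ETS match each, at 66 and 102. The direction of the members with a motif was mixed. Of the 17 tested members with an NRF1 match, 1 rose and 5 fell after 7 Gy in KO-labelled blood, with a median change of -0.40, beside 11 and 14 of the 50 without, median -0.28. Among the 16 with an ETS match 5 rose and 4 fell, median 0.04, beside 7 and 15 of the 51 without, median -0.32.

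**Figure D1:**
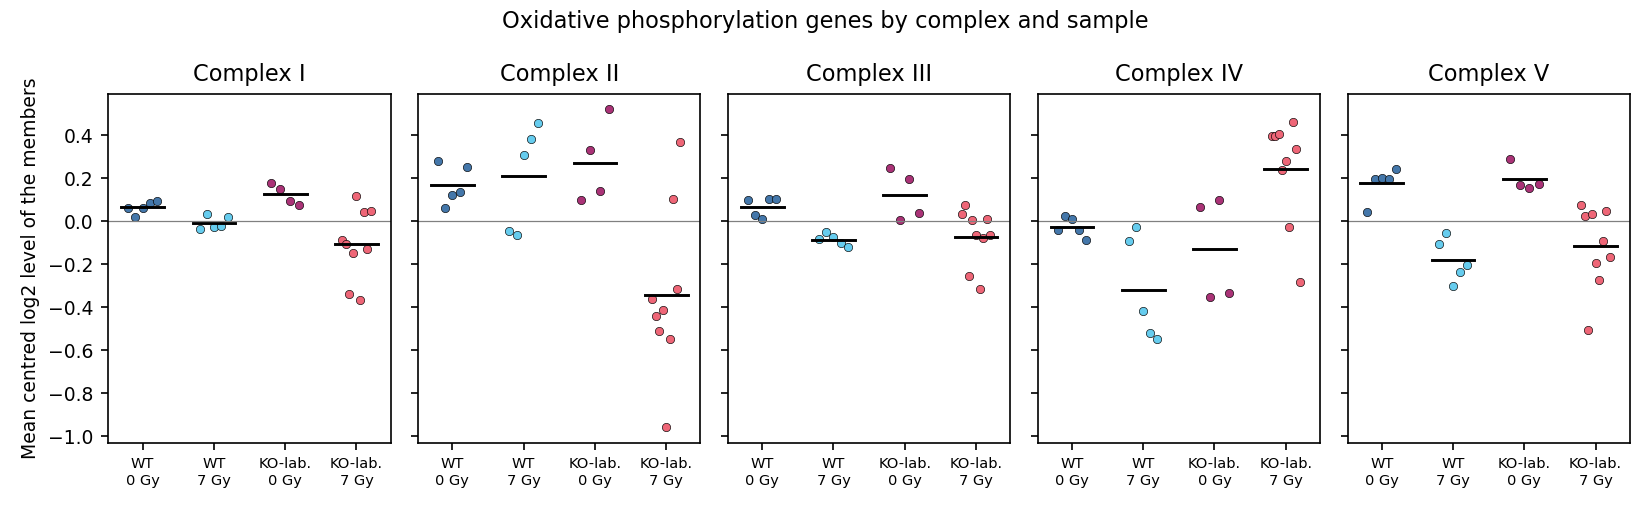
Mean of the members' log2 levels, each gene centred on its mean over all arrays, for complexes I to V. Each point is 1 sample (arrays 1 and 4 of KO-labelled 0 Gy averaged) and each bar a group mean. Complex IV spreads from -0.55 in WT blood at 7 Gy to 0.46 in KO-labelled blood at 7 Gy, while complex I stays between -0.37 and 0.18.

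Averaged over its members, each complex was given a level per sample. The mean centred level of complex IV in WT blood at 0 Gy was -0.04, 0.02, 0.01, -0.04 and -0.09 in replicates 1 to 5. At 7 Gy it was -0.09, -0.03, -0.42, -0.52 and -0.55, so arrays 1 and 2 stayed with the unirradiated samples and arrays 3 to 5 were lower. In KO-labelled blood at 0 Gy the level was 0.10 and 0.03 on arrays 1 and 4, which count as 1 sample, and -0.35, 0.10 and -0.33 on arrays 2, 3 and 5. At 7 Gy it ran from -0.28 to 0.46 with a median of 0.34, above 0.2 in 7 of 9 samples, with replicates 6 (-0.03) and 9 (-0.28) lower. Complex II, a mean of only 4 genes, spread over the widest range: it was 0.06 to 0.28 in WT blood at 0 Gy, -0.06 to 0.46 at 7 Gy, 0.10 to 0.52 in KO-labelled blood at 0 Gy and -0.96 to 0.37 at 7 Gy. There replicate 5 was lowest and replicates 7 (0.10) and 9 (0.37) were the only ones above 0. The level of complex I ran from 0.02 to 0.10 in WT blood at 0 Gy, -0.04 to 0.04 at 7 Gy, 0.08 to 0.18 in KO-labelled blood at 0 Gy and -0.37 to 0.12 at 7 Gy. Complex V was lower at 7 Gy in every sample of WT blood (-0.30 to -0.06) than in any at 0 Gy (0.04 to 0.24). The same held in KO-labelled blood (-0.50 to 0.07 at 7 Gy, 0.15 to 0.29 at 0 Gy). There the median centred level of all genes separated too (-0.40 to -0.05 at 7 Gy, 0.04 to 0.34 at 0 Gy). In WT blood the all-gene median overlapped (-0.046 to 0.094 at 7 Gy, 0.0016 to 0.187 at 0 Gy). Complex III also separated in WT blood (-0.12 to -0.05 at 7 Gy, 0.01 to 0.10 at 0 Gy). Each value is a mean over genes of mixed direction, and no test was made of it.

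**Figure D2:**
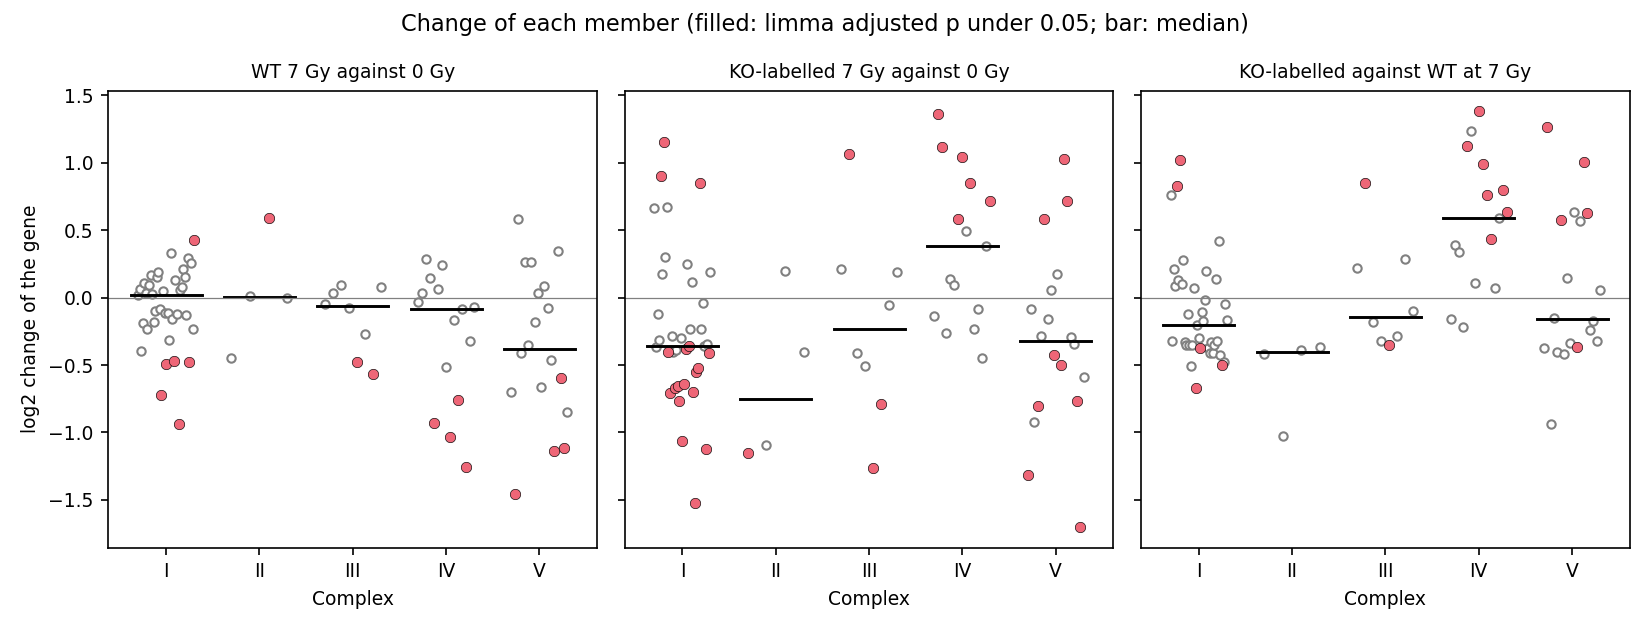
log2 change of each tested member by complex in 3 comparisons; filled points passed a limma adjusted p of 0.05 and bars are medians. In WT blood the called members of complexes IV and V lie below 0, and in KO-labelled blood against WT blood at 7 Gy the 7 called members of complex IV lie above it.

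The first question was how the members responded to 7 Gy in WT blood. Of the 82 tested members 2 rose and 15 fell, against 10.1% rising and 13.3% falling among all 15784 genes (23.5% called in all). Members that fell were 5 of 37 in complex I, 2 of 8 in complex III, 4 of 15 in complex IV and 4 of 18 in complex V. The median change of the members was -0.08, beside -0.05 over all genes. It was 0.02 for complex I, 0.01 for complex II, -0.06 for complex III, -0.08 for complex IV and -0.38 for complex V.

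Atp5b, the catalytic beta subunit of ATP synthase, had the largest fall. Its level was 3.94, 3.73, 3.62, 3.67 and 3.85 at 0 Gy and 2.69, 2.74, 2.01, 1.95 and 2.16 at 7 Gy. The groups did not overlap, and the change was -1.45 ± 0.25 (SE; adjusted p = 0.00012; n = 5 and 5; limma, 2-sided, as for all p-values here). Such lack of overlap was common in this comparison: it held for 28.5% of all genes and 25 of the 82 members. The Atp5b probe lies at chr10:127527255-127527314 (mm9). Atp5l, the membrane subunit g, fell by 1.14 (adjusted p = 0.00043), Atp5pb, the stator subunit b, by 0.60 (adjusted p = 0.0122) and Dmac2 by 1.12 (adjusted p = 3.4e-05). Atp5a1, the alpha subunit that pairs with Atp5b, was 0.12 to 0.22 at 0 Gy and -0.63 to -0.43 at 7 Gy. Those groups did not overlap either, but the change of -0.70 ± 0.40 did not pass the test (adjusted p = 0.23). The fit takes 1 spread per gene over all 23 samples, and KO-labelled 7 Gy replicate 5 was at -3.54 for this gene.

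In complex IV the members that fell were 4 small subunits. Cox7b (probe at chrX:103217154-103217213) was at 2.60, 2.10, 2.16, 2.25 and 2.13 before and 1.67, 1.64, 0.65, 0.54 and 0.46 after irradiation, a change of -1.26 ± 0.26 (adjusted p = 0.0011). Cox6c (chr15:35861751-35861810) was at 3.32, 2.94, 2.84, 2.98 and 3.05 and then 2.66, 2.70, 1.41, 1.51 and 1.67, a change of -1.04 ± 0.28 (adjusted p = 0.0093). Arrays 1 and 2 at 7 Gy stood between the unirradiated samples and arrays 3 to 5 in both genes. Cox6a1 fell by 0.93 (adjusted p = 0.02) and Cox7a2 by 0.76 (adjusted p = 0.0015), with the same split of the irradiated arrays. Cox4i1 (-0.04), Cox5a (0.29) and Cox5b (0.14), also nuclear-encoded, did not pass the test.

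In complex I the largest fall was that of Ndufs1, the iron-sulfur subunit of the electron-input module. Its level was -1.52, -1.97, -1.88, -2.03 and -1.79 at 0 Gy and -2.88, -2.80, -2.60, -2.84 and -2.75 at 7 Gy, without overlap, a change of -0.94 ± 0.17 (adjusted p = 0.0003). Here arrays 1 and 2 were as low as arrays 3 to 5. Ndufb11 fell by 0.72, Ndufb4 by 0.49, Ndufs8 by 0.48 and Ndufb9 by 0.47, and Ndufv3, an accessory subunit, rose by 0.43. Of the 3 probes of Ndufv3 only 1 was called, and the lowest change among them was -0.14. The core subunits Ndufv1 (0.25) and Sdhb (0.01) did not pass the test. Sdhc, a membrane anchor of succinate dehydrogenase, rose by 0.59 (adjusted p = 0.029), from -2.95 to -2.86 at 0 Gy to -2.56 to -2.04 at 7 Gy. The other of its 2 probes changed by -0.05 and was not called. The call of Sdhc was lost in 11 of 40 other settings. In complex III Uqcrc2, a core subunit, fell by 0.48 and Uqcrh, the hinge subunit, by 0.57. The call of Uqcrh was lost in 15 of 40 other settings, among them the 3 other scalings, and that of Ndufb4 in 13 of 41.

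Without WT 7 Gy arrays 3 to 5, which had the highest hepatocyte markers, 5 members fell and 0 rose, and Cox6c (-0.35, adjusted p = 0.63), Cox7b (-0.59, adjusted p = 0.25) and Cox6a1 (-0.54, adjusted p = 0.49) were no longer called; averaging arrays that nearly repeat each other left 0 calls (6 at an unadjusted p under 0.05). Erythroid markers moved with this result: their mean centred level was 0.29 to 0.78 at 0 Gy, -0.45 and -0.64 on WT 7 Gy arrays 1 and 2 and -2.02 to -1.89 on arrays 3 to 5, with 6 of 9 markers falling, and their part in the falls of Cox6c, Cox7b and Cox6a1 was not tested. Of the other cell types, 8 of 8 B cell markers and 3 of 9 T cell markers fell, and 6 of 9 platelet and 11 of 11 hepatocyte markers rose; their part was not tested. Leaving out WT 7 Gy replicate 4 gave 11 calls.

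The same question in KO-labelled blood gave 13 members that rose and 24 that fell of 82. The shares over all genes were 12.2% and 34.8% (47% called). The median change was -0.28, beside -0.27 over all genes. By complex, 3 rose and 15 fell in complex I (median -0.36), 0 and 1 in complex II (-0.75), 1 and 2 in complex III (-0.23), 6 and 0 in complex IV (0.39) and 3 and 6 in complex V (-0.32). The split depended on the scaling, which moves the median of all genes from -0.27 to -0.01 (array median) or 0.07 (75th percentile over all probes): 22 rose and 14 fell with each array scaled to its median, and 22 and 9 with the percentile taken over all probes. Complex IV had 8 rising and 0 falling under both, while complex I went from 3 and 15 to 8 and 7 and to 8 and 4.

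Core subunits were among the largest falls. Ndufs1 (probe at chr1:63190360-63190419) was at -1.49, -2.04, -1.39 and -1.41 in the 4 samples at 0 Gy and from -3.37 to -2.61, median -3.16, in the 9 at 7 Gy, a change of -1.52 ± 0.16 (adjusted p = 2.0e-07). Sdha, the flavoprotein subunit of succinate dehydrogenase (chr13:74460310-74460369), ran from -1.58 to -1.06 in the same 4 samples and then from -2.96 to -1.91, median -2.70, a change of -1.15 ± 0.19 (adjusted p = 3.2e-05). Uqcrc2 (chr7:127802599-127802658) was at -0.61, -0.75, -0.80 and -0.71 and then from -2.32 to -1.66, median -1.96, a change of -1.27 ± 0.13 (adjusted p = 6.7e-08). The groups did not overlap in any of the 3 genes; all genes without overlap in this comparison were 24.8% of those tested. Uqcrfs1, the Rieske protein, fell by 0.79 and Atp5a1 by 1.32. For Atp5a1, replicate 5 at 7 Gy was at -3.54, against -0.93 to -0.34 in the others. Over 41 other settings its change ran from -1.69 to -0.99. Of the 16 subunits listed as core for naming, 6 fell, 1 (Cox5a) rose and 14 had a negative change, with a median of -0.53. Among all genes 34.8% fell and 9502 of 15784 had a negative change, with a median of -0.27. Ndufs8, an iron-sulfur subunit outside that list, fell by 1.12, and Dmac2 by 1.70.

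**Figure D3:**
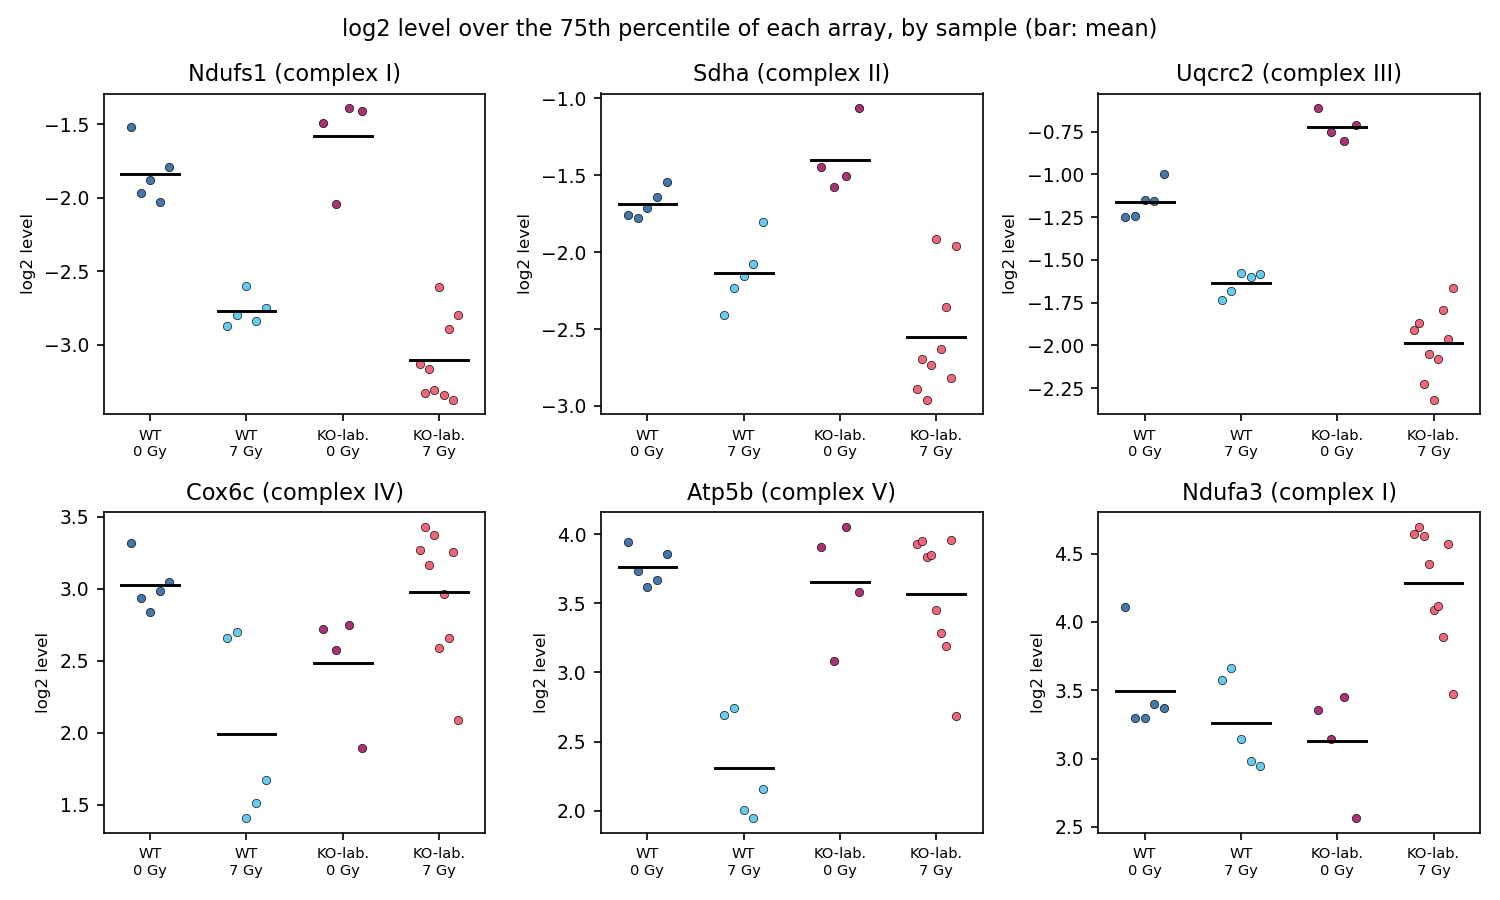
log2 level of 6 members over the 75th percentile of each array, by sample, with group means as bars. Ndufs1 and Uqcrc2 are lower at 7 Gy under both labels and Sdha under the KO label; Cox6c and Atp5b are lower at 7 Gy in WT blood, and Ndufa3 is higher at 7 Gy in KO-labelled blood.

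Rises were called in complexes I, III, IV and V. Ndufa3, a small accessory subunit of complex I (chr7:3571695-3571754), was at 3.36, 3.15, 3.45 and 2.56 at 0 Gy and from 3.47 to 4.70, median 4.43, at 7 Gy, a change of 1.15 ± 0.23 (adjusted p = 0.00035), and its groups did not overlap. Of the 3 probes of Ndufa3, 2 were called as rising, and the lowest change among the 3 was -0.16. Ndufa13, also known as GRIM-19, rose by 0.90 and Ndufs4, an accessory subunit of the same module as Ndufs1, by 0.85. Uqcr11, a small subunit of complex III, was at 1.82, 1.34, 1.65 and 0.75 and then from 1.69 to 2.87, median 2.47, a rise of 1.07 ± 0.21 (adjusted p = 0.00023). In complex IV Cox5a, a nuclear-encoded subunit (chr9:57379593-57380141), ran from 0.66 to 1.87 in the 4 samples at 0 Gy. At 7 Gy it ran from 2.17 to 3.11, median 2.45, a rise of 1.12 ± 0.20 (adjusted p = 7.8e-05). Its level at 0 Gy was lowest in replicate 2. The other risers of complex IV were Cox4i2 (1.36), Cox6b2 (1.05), Cox7a1 (0.85), Cox8a (0.72) and Cox6b1 (0.58), and those of complex V were Atp5j2 (1.02), Atp5k (0.72) and Atp5e (0.58).

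Direction went with the brightness of the probe. Of the 33 members whose mean signal lay above the 75th percentile, 9 rose and 2 fell (median 0.17); of the 49 below it, 4 rose and 22 fell (median -0.41). Over all genes the medians were 0.12 for 1660 bright probes and -0.33 for 14124 dim ones, and Spearman's rho between level and change was 0.47 across the 82 members and 0.11 across all genes, a description across probes that share the same libraries. Complex IV had 9 of 15 probes above the percentile, complex I 12 of 37 and complex II 0 of 4, and the part of brightness in the difference between complexes was not tested. Cell type markers moved as well: 8 of 8 B cell and 7 of 9 T cell markers fell, 8 of 9 platelet and 9 of 11 hepatocyte markers rose, 5 of 11 neutrophil markers fell, and 2 of 9 erythroid markers rose and 5 fell. Their part in the changes of the members was not tested.

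Without KO-labelled 0 Gy arrays 2 and 5, 5 members rose and 15 fell, 2 and 0 of them in complex IV; averaging near-repeat arrays left 4 and 9, and normexp background correction 5 and 5. When slide was added to the fit, there were 16 rises and 31 falls. That fit counted KO-labelled 0 Gy arrays 1 and 4 as separate samples. Within each of the 5 slides that hold every group the median change of complex IV was positive (0.39 to 0.69). That of complex I was negative (-0.63 to -0.09). Slides 1 and 4 each hold 1 array of the pair counted as 1 sample in the main fit.

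At 0 Gy no member differed between KO-labelled and WT blood: 0 of 82 were called, with 4 at an unadjusted p under 0.05, by the limma fit of all genes, in which 0.291% of genes were called (0.209% higher and 0.0824% lower in KO-labelled blood). The count was 0 in each of the 17 other settings too, with 0 to 9 members at an unadjusted p under 0.05. Medians by complex ran from -0.15 (complex IV) to 0.10 (complex I), beside 0.10 over all genes. The largest differences among the members were those of Cox6a2 (1.21 ± 1.13) and Cox4i2 (-0.94 ± 0.54).

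At 7 Gy the labels differed: 14 members were higher and 5 lower in KO-labelled blood, against 4.43% higher and 18.3% lower over all genes (22.7% called). The 5 comparisons share their groups, so these values are not independent of the responses above. Complex IV had 7 higher and 0 lower of 15 (median 0.59), complex V 4 and 1 of 18 (-0.16), complex I 2 and 3 of 37 (-0.21), complex III 1 and 1 of 8 (-0.14) and complex II 0 of 4 (-0.40), beside a median of -0.12 over all genes. With median scaling, 75th percentile over all probes and quantile normalization the splits were 16 and 1, 18 and 1, and 13 and 1. No member separated the groups without overlap; 6.14% of all genes did.

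In complex IV the higher members were Cox6b2 (1.38 ± 0.26, adjusted p = 0.0005), Cox6a1 (1.13), Cox6c (0.99), Cox7c (0.80), Cox7a1 (0.76), Cox8a (0.63) and Cox7a2 (0.44). Cox6b2, known as a testis form of the subunit, was at 0.28, 0.33, -0.59, -0.49 and -0.84 in WT blood and from 0.21 to 1.69, median 1.36, in KO-labelled blood. In complex V Atp5b was 1.26 ± 0.22 higher (adjusted p = 0.00026), with a KO-labelled range of 2.68 to 3.95 and median 3.83 beside the WT values given above. Atp5k, the membrane subunit e, was at 1.08, 1.12, 0.45, 0.53 and 0.50 in WT blood and from 0.84 to 2.20, median 1.79, in KO-labelled blood, 2.01-fold higher (adjusted p = 0.0011). Atp5l was 0.62 and Atp5e 0.58 higher. Ndufa3 (1.02), Ndufa13 (0.83) and Uqcr11 (0.85) were higher as well. Lower members were Ndufb2 (-0.67), Ndufs8 (-0.50), Ndufb5 (-0.37), Uqcrc2 (-0.35) and Atp5j (-0.36). Of the 4 probes of Ndufb5 only 1 was called, and the highest change among them was 0.53. The calls of Uqcrc2 and, among the higher members, Cox8a were each lost in 14 of 41 other settings.

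Bright probes held 12 of the 14 higher members and 0 of the 5 lower ones. Erythroid markers differed in the same direction, with 6 of 9 higher in KO-labelled blood and a level of -0.90 to 0.37 beside -2.02 to -0.45 in WT blood, and hepatocyte markers in the other, with 10 of 11 lower. Lower as well were 8 of 11 neutrophil markers (1 was higher), 5 of 7 NK cell markers and 4 of 9 T cell markers. The part of these lists in the differences was not tested. Without WT 7 Gy arrays 3 to 5 no member was called (9 at an unadjusted p under 0.05), and among the named genes Cox6c then differed by 0.30, Cox6a1 by 0.73 and Atp5b by 0.85; averaging near-repeat arrays also left 0 (3 unadjusted). The slide block gave 19 higher and 17 lower, omission of KO-labelled 7 Gy arrays 5 and 7 gave 16 and 21, and of replicate 9 gave 18 and 21, with 8, 6 and 8 members of complex IV higher and 0 lower, against 7 and 0 in the fit of all samples. Cox7a1 and Cox7a2 were not called without KO-labelled 7 Gy arrays 5 and 7.

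The difference of the responses, tested as an interaction, was called for 11 members. Of these 7 were more positive in KO-labelled blood, against 3.08% of all genes, and 4 more negative, against 12.7% (15.8% called in all). The positive ones were Cox6b2 (1.56 ± 0.40, adjusted p = 0.013), Cox6c (1.53 ± 0.39, adjusted p = 0.012), Ndufa3 (1.39 ± 0.34, adjusted p = 0.010), Atp5b (1.37 ± 0.34, adjusted p = 0.011), Atp5k (1.18), Uqcr11 (1.03) and Atp5e (0.93). The negative ones were Ndufb2 (-0.82), Uqcrc2 (-0.79 ± 0.18, adjusted p = 0.0077), Atp5o (-0.69) and Atp5j (-0.59). The patterns behind these differ. Cox6c and Atp5b fell in WT blood and did not pass the test in KO-labelled blood (0.50 and -0.09). Ndufa3 and Uqcr11 rose in KO-labelled blood and changed by -0.23 and 0.04 in WT blood, and Uqcrc2 fell in both. The median difference was 0.78 for complex IV and -0.20 for complex I, beside -0.27 over all genes. Complex IV was positive within each of the 5 slides (0.39 to 1.14). Slides 1 and 4 there draw on the KO-labelled 0 Gy pair counted as 1 sample in the main fit. The count moved with the arrays that stood apart: 0 members were called without WT 7 Gy arrays 3 to 5 (12 unadjusted), 1 without KO-labelled 0 Gy arrays 2 and 5 and 25 without KO-labelled 7 Gy arrays 5 and 7, and the slide block called 31 (17 and 14). The differences kept their sign in all 41 settings, from 0.88 to 1.73 for Ndufa3, 0.94 to 1.71 for Atp5b and 0.99 to 1.90 for Cox6b2.

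**Figure D4:**
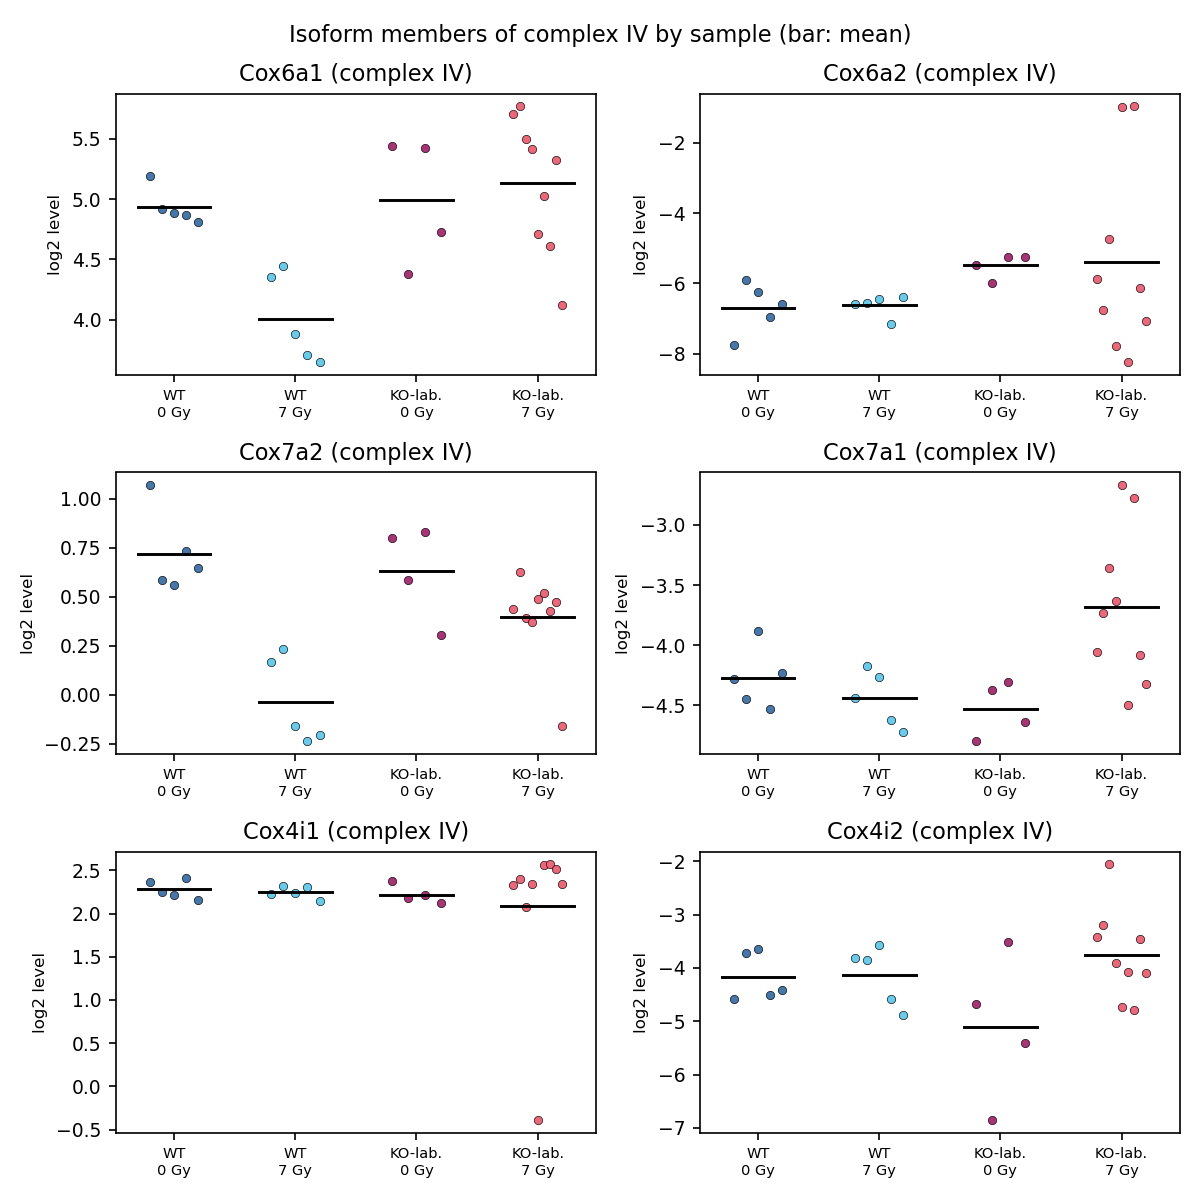
log2 level of 3 isoform pairs of complex IV by sample, with group means as bars: the widespread form on the left and the tissue-restricted form on the right. In KO-labelled blood at 7 Gy, 2 samples have Cox6a2 near -1 while the others lie below -4, and 1 sample has Cox4i1 at -0.39.

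Among the isoforms of complex IV, Cox6a2 was near background in most samples, at -7.77, -5.92, -6.24, -6.95 and -6.59 in WT blood at 0 Gy, -7.16 to -6.39 at 7 Gy and -5.99 to -5.24 in KO-labelled blood at 0 Gy. At 7 Gy it was at -5.88, -6.76, -4.74, -7.79, -0.97, -8.24, -0.96, -6.14 and -7.08 in replicates 1 to 9, so that replicates 5 and 7 stood alone. Cox7a1, the other heart and muscle form measured, was highest in the same replicates (-2.67 and -2.78, against -4.50 to -3.36 in the other 7). Those arrays also carried the most RNA of skeletal muscle genes: 5 of 6 muscle markers (Ckm, Acta1, Myh4, Tnnt3 and Mb) were higher there than on any other array, Myh4 at 0.76 and 0.53 against at most -6.14, whereas of 6 heart markers only Myl2 was, and Myh6, Tnni3, Nppa and Tnnt2 were not. Without the pair, Cox7a1 was no longer called between labels at 7 Gy (0.49, adjusted p = 0.062), but its rise in KO-labelled blood was (0.58, adjusted p = 0.023); that rise was not called without KO-labelled 0 Gy arrays 2 and 5 (0.87, adjusted p = 0.074). The widespread forms did not follow: Cox6a1 in KO-labelled blood at 7 Gy ran from 4.12 to 5.77 around a median of 5.33 and Cox7a2 from -0.16 to 0.63. Cox4i2, the lung form of subunit 4, was called up (1.36 ± 0.48, adjusted p = 0.023), from -4.67, -6.85, -3.52 and -5.42 at 0 Gy to -4.78 to -2.06 at 7 Gy, with overlap, and gave 0.34 (adjusted p = 0.69) without KO-labelled 0 Gy arrays 2 and 5.

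In the other isoform sets the changes of Cox7a2l (-0.08 in WT and in KO-labelled blood), Ndufa4 (0.09 and 0.30), which is now placed in complex IV, and Ndufa4l2 (0.17 and 0.67) did not pass the test. The 3 genes for the membrane ring of ATP synthase encode the same mature protein. Atp5g3 fell by 0.42 in KO-labelled blood (adjusted p = 0.017), whereas the brightest probes of Atp5g1 (-0.16) and Atp5g2 (0.06) did not pass the test there. A second probe of each was called as falling, by 0.56 for Atp5g1 and 0.58 for Atp5g2, and no probe of the 3 genes was called in WT blood.

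Several subunits listed as core had a single sample far from the rest. KO-labelled 7 Gy replicate 5 was at -4.48 for Sdhb, whose other 8 samples ran from -0.93 to -0.13, and its change of -1.09 ± 0.50 was not called (adjusted p = 0.079). A second Sdhb probe read -2.10 in that replicate, inside the range of the other arrays (-3.14 to -1.86), and that probe was called as falling in KO-labelled blood (-0.57 ± 0.19, adjusted p = 0.018). Cox4i1 (-0.39 against 2.08 to 2.57) and Atp5a1 (-3.54 against -0.93 to -0.34) were low in the same replicate. Atp5c1, the central stalk, was at -6.38 in KO-labelled 7 Gy replicate 3 and -4.29 in WT 0 Gy replicate 1, 2 of the arrays with noisy repeat spots, and otherwise between -1.16 and 0.80, while its second probe read -2.21 and -1.94 there, inside its range elsewhere, and was called as falling in KO-labelled blood (-0.85 ± 0.15). Over the 28 members with several probes that passed, 0 had probes called in opposite directions in any comparison, and 23 had changes of 1 sign across all their probes in the KO-labelled response.

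**Figure D5:**
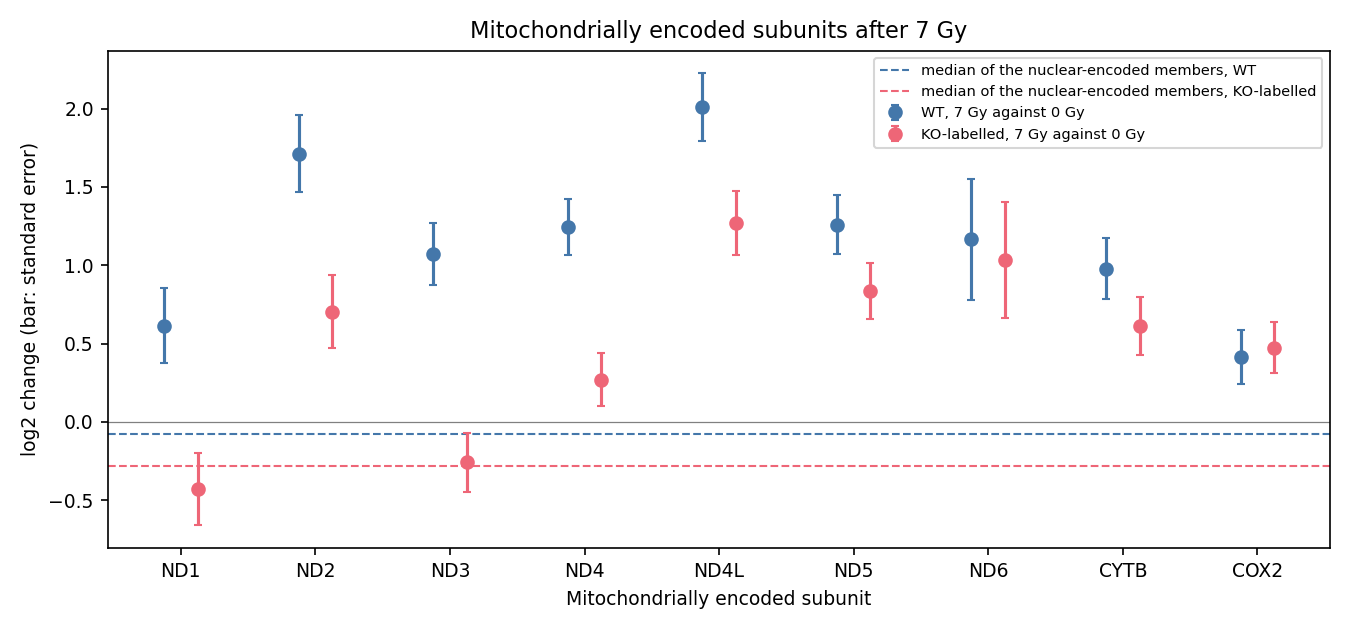
log2 change after 7 Gy of 9 mitochondrially encoded subunits in WT and KO-labelled blood, with the standard error as bars. Dashed lines give the medians of the nuclear-encoded members, -0.08 and -0.28. All 9 changes in WT blood lie above 0.4.

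The name rule leaves out the subunits encoded in mitochondrial DNA, of which most rose. In WT blood 7 of 9 rose, with a median of 1.17: ND4L (2.01 ± 0.21, adjusted p = 2.9e-07), ND2 (1.71), ND5 (1.26), ND4 (1.24), ND6 (1.17), ND3 (1.07) and CYTB (0.98), and 0 fell. ND4L was at -0.50, -0.87, -0.70, -1.03 and -1.19 at 0 Gy and 1.10, 0.90, 1.49, 1.44 and 0.82 at 7 Gy, with no overlap and no split between arrays 1 to 2 and 3 to 5. In KO-labelled blood 6 of 9 rose, with a median of 0.61, led by ND4L (1.27). Over all genes 10.1% rose in WT and 12.2% in KO-labelled blood. At 0 Gy 0 of 9 differed between labels (1 at an unadjusted p under 0.05), and at 7 Gy 5 were lower in KO-labelled blood. The response was less positive in KO-labelled blood for 4 of 9 (ND1, ND2, ND3 and ND4), with ND3 at -1.33 ± 0.27 (adjusted p = 0.0041). Among all genes 18.3% were lower at 7 Gy and 12.7% had a more negative response in KO-labelled blood. ND3 was -0.71 to -0.18 at 0 Gy and 0.49 to 0.85 at 7 Gy in WT blood and did not pass the test in KO-labelled blood (-0.26). Without WT 7 Gy arrays 3 to 5, 5 of 9 rose in WT blood and 1 was lower between labels at 7 Gy, and without KO-labelled 0 Gy arrays 2 and 5, 2 of 9 rose in KO-labelled blood. Under the 3 other scalings the WT response had 7 or 8 rises and 0 falls, the KO-labelled response 4 to 7 and 0, and the difference between labels at 7 Gy 2 to 5 lower. The files place the probes of COX2 and ND4L on chromosome 1, where a copy of mitochondrial sequence lies in the nuclear genome, and copies cannot be told apart by these probes.

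Genes that work with the members were followed as lists. Of 17 genes of the TCA cycle, which feeds electrons to complexes I and II, 13 fell and 0 rose in KO-labelled blood, with a median of -0.95, among them Fh1 (-1.75), Idh3a (-1.61) and Cs, citrate synthase (-1.05). Of 16 genes of mitochondrial transcription and biogenesis that passed the filter, of 20 listed, 13 fell and 0 rose (median -1.20), with Tfam, which packages mitochondrial DNA, at -2.23 and Polg2 at -1.90. Of 37 assembly factors that passed, of 46 listed, 17 fell and 3 rose (median -0.40), among them Acad9 (-1.47) and, upwards, Coa5 (1.04). Of 20 glycolytic genes, 3 fell and 5 rose. In WT blood 2 genes of the TCA cycle fell and 0 rose, 4 of the biogenesis list fell (Tfam by 1.35) and 0 rose, 2 assembly factors rose (Coa3 and Uqcc1) and 2 glycolytic genes rose. These counts stand beside 34.8% and 13.3% of all genes falling in the KO-labelled and WT responses. Under the 3 other scalings 10 to 12 TCA genes and 10 to 13 biogenesis genes fell and 0 rose in KO-labelled blood, whereas the assembly factors went to between 7 and 12 falls beside 6 or 7 rises. Without KO-labelled 0 Gy arrays 2 and 5 the falls in these 3 lists were 8, 12 and 9, and without WT 7 Gy arrays 3 to 5, which leaves 2 irradiated WT samples, no biogenesis gene was called in WT blood, though the list's median went from -0.18 to -0.25, and no assembly factor was called. At 7 Gy, 10 biogenesis genes, 8 assembly factors and 3 TCA genes were lower in KO-labelled than in WT blood, beside 18.3% of all genes. The counts were 4, 2 and 0 without WT 7 Gy arrays 3 to 5, with the biogenesis median at -0.63 against -0.67, and 12, 11 and 9 without KO-labelled 7 Gy arrays 5 and 7.

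Of 12 electron carriers and subunits outside the name rule, 2 rose and 3 fell in KO-labelled blood, beside 12.2% and 34.8% of all genes. Cyc1, cytochrome c1 of complex III, changed by 0.30 in WT and -0.44 in KO-labelled blood and Cycs, cytochrome c, by -0.24 and -0.41, none past the test, though Cyc1 was 0.66 lower in KO-labelled than in WT blood at 7 Gy (adjusted p = 0.01). Ndufab1, the acyl carrier subunit of complex I, fell by 0.51 in KO-labelled blood. Atpif1, the inhibitor of ATP synthase, changed by -0.58 in WT blood and rose by 0.56 in KO-labelled blood, a called difference of 1.14 ± 0.32 (adjusted p = 0.019).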

How the data were processed

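RNA of 24 blood samples was read on 24 one-colour arrays on 6 slides. The authors deposited scanner output with a linear processed signal (intensity) that the scanner software had background-corrected; per the submitters' processing notes it was Agilent Feature Extraction 12.0.2. They also deposited a table of log2 values on 12900 entries, of which 12863 matched probes here; its values differ from log2 processed signal by a constant per array (up to 1.54, column medians 5.75 to 7.18) within 0.01 for 71.7% to 94.9% of entries, and its centring is not given in the sources used here. It served as an alternative.

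Signals were put on a log2 scale and each array was centred at its 75th percentile over the 7851 probes above background on all arrays. Outlier spots were left out and repeat spots averaged. Probes above background on fewer than 5 arrays were dropped (19647 of 39429 stayed), and the brightest probe stood for a gene (15784 genes). KO-labelled 0 Gy arrays 1 and 4 were averaged, a pair whose difference was 1.05 times the noise of repeat spots; the cut of 1.2 times was set with the ratios known, and the next pair was at 1.25. Of the probes, 28663 were named through an accession, 3300 by symbol, 160 by older symbol and 7306 by the name in the files. A limma (3.58.1, R 4.3.3) fit of 4 groups on 23 samples gave moderated tests with Benjamini-Hochberg adjustment over all genes, and an adjusted p under 0.05 is a call. On simulated data of 15710 genes with independent normal noise, 50 genes per size of change were altered in each response. Changes of 1 and 2 (log2) were recovered for 18% and 84% of them in the WT response and 32% and 80% in the KO-labelled response. The shares were 42% and 86% between labels at 7 Gy and 11% and 61% in the difference of responses. Far more genes were called in the data (23.5% in the WT and 47% in the KO-labelled response), so these rates do not carry over to the fits. Probe coordinates are mm9, as in the files, and promoters are from GRCm38.p6.

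Members, lists and tests were chosen with earlier results of these data known. The rule for named genes took, in each comparison, the 3 called members of each complex with the largest change. It then took 16 subunits listed as core (for complex IV the nuclear-encoded Cox4i1, Cox5a and Cox5b), the isoform sets and genes whose probes were called in opposite directions. For the setting it took Cyc1, Cycs, Ndufab1, Atpif1 and mitochondrially encoded subunits. Other genes were named after their values were seen. Some results on single members are not reported here. Replicate numbers were checked for pairing: 18 of 30 same-numbered pairs correlated over 0.1 (-0.23 to 0.71). The main fit nonetheless has no block, so its p-values leave out what same-numbered arrays share. Numbers 1 to 5 are also the slides in every group (KO-labelled 7 Gy arrays 6 to 9 share slide 6). Fits with slide as a block and values within slides therefore stand beside the results. Block fits and within-slide values keep KO-labelled 0 Gy arrays 1 and 4 apart. Alternatives covered scaling, background correction, filter, probe choice, block and left-out arrays. The number of arrays limits the precision.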

Additional observations from a re-analysis of the deposited data

Results flagged for a closer look

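Of 140 sets of 4 to 9 samples examined by Dixon's criterion for a sample far from the others, 14 were past the 95% value, or 10%, where chance gives about 5%. In KO-labelled blood at 0 Gy the pair of arrays 1 and 4 was high in the complex V level (0.29), replicate 2 was low in Ndufs1 (-2.04) and replicate 5 in Cox7b (1.57). In KO-labelled blood at 7 Gy replicate 5 was low in Sdhb (-4.48), Cox4i1 (-0.39) and Atp5a1 (-3.54), and replicate 3 in Atp5c1 (-6.38) and Atp5j (-1.75). In WT blood at 0 Gy replicate 1, an array with noisy repeat spots, was low in the complex V level (0.0419) and in Atp5c1 (-4.29) and high in Ndufa3 (4.11), Cox6a1 (5.19) and Atp5l (3.61). In WT blood at 7 Gy replicate 4 was low in Cox6a2 (-7.16).

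The response to 7 Gy differed between labels, by the interaction term of the limma fit, for 11 members. The difference (KO-labelled minus WT, log2) was 1.56 for Cox6b2, 1.53 for Cox6c, 1.39 for Ndufa3, 1.37 for Atp5b, 1.18 for Atp5k, 1.03 for Uqcr11 and 0.93 for Atp5e. It was -0.59 for Atp5j, -0.69 for Atp5o, -0.79 for Uqcrc2 and -0.82 for Ndufb2.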

How the results depend on the processing

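The counts of called members were 17 (WT response), 37 (KO-labelled response), 0 (labels at 0 Gy), 19 (labels at 7 Gy) and 11 (difference of responses). Normexp background correction gave 5, 10, 0, 4 and 0 (0 and 13 at an unadjusted p under 0.05 where 0). No filter on dim probes gave 8 in the WT response, 11 between labels at 7 Gy and 4 in the difference, and only probes above background on all arrays gave 22 in the difference. The deposited table, which held 40 members, gave 6, 21 and, in the difference, 7. Quantile normalization gave 6 in the difference, and omission of noisy arrays 6. Averaging near-repeat arrays (threshold chosen after seeing the data) gave 0, 13, 0, 0 and 0 (6, 0, 3 and 5 unadjusted where 0). Without WT 7 Gy arrays 3 to 5 there were 5 in the WT response and 0 in the last 2 counts (9 and 12 unadjusted). The slide block gave 36 between labels at 7 Gy and 31 in the difference. The replicate block gave 24, 53, 0 (9 unadjusted), 43 and 42, and replicate numbers 1 to 5 coincide with the slides. Both block fits counted KO-labelled 0 Gy arrays 1 and 4 as separate samples. The other scalings moved the split of rises and falls in the difference of responses from 7 and 4 to 12 and 1, 15 and 0, and 6 and 0. Omissions chosen after seeing the data gave, without KO-labelled 7 Gy arrays 5 and 7, 37 and 25 in the last 2, and without KO-labelled 0 Gy arrays 2 and 5, 20 in the KO-labelled response and 1 in the difference. Leaving out 1 array at a time gave 11 to 18, 29 to 46, 0 to 0, 11 to 39 and 7 to 31; KO-labelled 7 Gy replicate 9 gave the highest of the last 2, replicate 5 gave 17 in the difference, KO-labelled 0 Gy replicate 5 gave 7 there, and WT 7 Gy replicates 4 and 5 gave 11 between labels at 7 Gy. Of the named called changes, 1948 of 2202 refits kept direction and call, 254 kept the direction only and 0 reversed. These changes were called in the same data, and 1296 of the refits leave out 1 array, with 57 calls lost. Other settings lost more: 46 of 54 with near-repeat arrays averaged, 40 of 54 under normexp and 32 of 54 without WT 7 Gy arrays 3 to 5. The cause of these shifts was not tested. Signal near background limits Cox6a2 and Ndufa4l2.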
